A study of Mus musculus with 8 samples.

Results

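RNA of a CD41- CD9- progenitor population was set against that of a CD48bright progenitor population, both sorted from the bone marrow of wild-type C57BL/6 mice. The study isolated common myeloid progenitors in 4 populations and made 2 libraries of each; the 4 libraries of these 2 populations, of 8 in all, were chosen by their sort labels. Per the labels, CD41- CD9- cells were KIT+, CD16/32-, CD34dim and negative for CD41 and CD9, while CD48bright cells were KIT+, CD16/32-, CD34dim, CD41+, CD9+ and bright for CD48. Both groups therefore shared the KIT, CD16/32 and CD34 gates and carried no treatment or altered allele. The labels give no age or sex, no other marker of the sort, and nothing on whether a population's replicate libraries go back to different mice, pooled mice or different sorts. The p-values therefore rest on the variation from library to library alone, part or all of which could be technical.

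In CD41- CD9- cells 9 of 15 early lymphoid genes were higher, 4 of them also with all 8 libraries of the series in the fit. Dntt, Il7r, Rag1 and Rag2 there averaged 1222, 195.9, 67.5 and 93.9 CPM, against 70.1, 10.5, 1.96 and 4.92 CPM in CD48bright cells. Also higher were 8 of 18 B lineage genes, 10 of 17 plasmacytoid dendritic cell genes and 8 of 21 monocyte genes, of which 1, 1 and 0 were called when all 8 libraries of the series entered the fit. Some of these genes are members of more than 1 list. Of all tested genes, 1.54% were called higher and 0.925% lower. These were 307 genes in all, while 28 genes were called with all 8 libraries. Mature neutrophil genes were high in 1 of the CD41- CD9- libraries, at a summed level of 746.7 CPM against 56.6 CPM in the other. Of 17 mast cell, basophil and eosinophil genes 12 were lower in CD41- CD9- cells, Gata2 among them. Cpa3, another of the 12, was at 34.6 CPM in CD41- CD9- cells and 390.8 CPM in CD48bright cells. Also lower in CD41- CD9- cells were 7 of 22 platelet genes, among them Itga2b, the gene of the CD41 gate, and 6 of 17 neutrophil granule genes. With all 8 libraries, 3 of the mast cell list, 2 of the platelet list and 0 of the granule list were called lower. The granule genes summed to 22120 and 9686 CPM in the CD48bright libraries, so these lay far apart. Genes of mitosis and DNA replication had no called member in either direction.

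As background, common myeloid progenitors are a mixed compartment of KIT-bearing marrow cells defined by surface proteins. CD41 is the alpha chain of the platelet integrin, encoded by Itga2b, and is carried by megakaryocytes and by some early progenitors; CD9 is a tetraspanin found on megakaryocytes and on mast cells and basophils; CD48 is a receptor of the SLAM family that long-term stem cells lack. Lymphoid-primed progenitors carry the receptor FLT3 and begin to transcribe the recombination genes before they commit, while GATA2 is a transcription factor of stem cells, mast cells, basophils and megakaryocyte progenitors.

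The libraries held 12893841 and 12073092 expected counts in CD41- CD9- cells, and 19594630 and 10318447 in CD48bright cells. Of 24411 genes, 16593 had a count in these libraries and 12437 were tested. Levels are CPM, counts scaled to a common library total by TMM, log2 fold changes are CD41- CD9- over CD48bright, and a gene was called where the adjusted p of edgeR's quasi-likelihood test was below 0.05. The test called 307 genes (2.47% of those tested), of which 192 were higher in CD41- CD9- cells (1.54%) and 115 lower (0.925%). With the spread estimated from all 8 libraries, 28 genes were called (0.212% of 13177), 11 higher (0.0835%) and 17 lower (0.129%), and all 28 were among the 307. Of the 307 genes, 25 were called under every one of the 12 alternatives run, 11 higher and 14 lower. Over all tested genes the median log2 fold change was -0.01, and Spearman's correlation of levels was 0.958 between the CD41- CD9- libraries, 0.95 between the CD48bright libraries and 0.912 to 0.94 between the populations. Rn45s, the ribosomal RNA precursor, took 7.24% and 1.86% of counts in CD41- CD9- libraries and 6.41% and 0.969% in CD48bright libraries, so replicate 1 of each population held more of it. Counts of the lists of genes below are descriptions, since their members were chosen with earlier results of these data known. Each count is to be read beside the 1.54% of all tested genes called higher and the 0.925% called lower. In RNA of a sorted population, more cells of a type and more RNA per cell cannot be told apart.

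**Figure D1:**
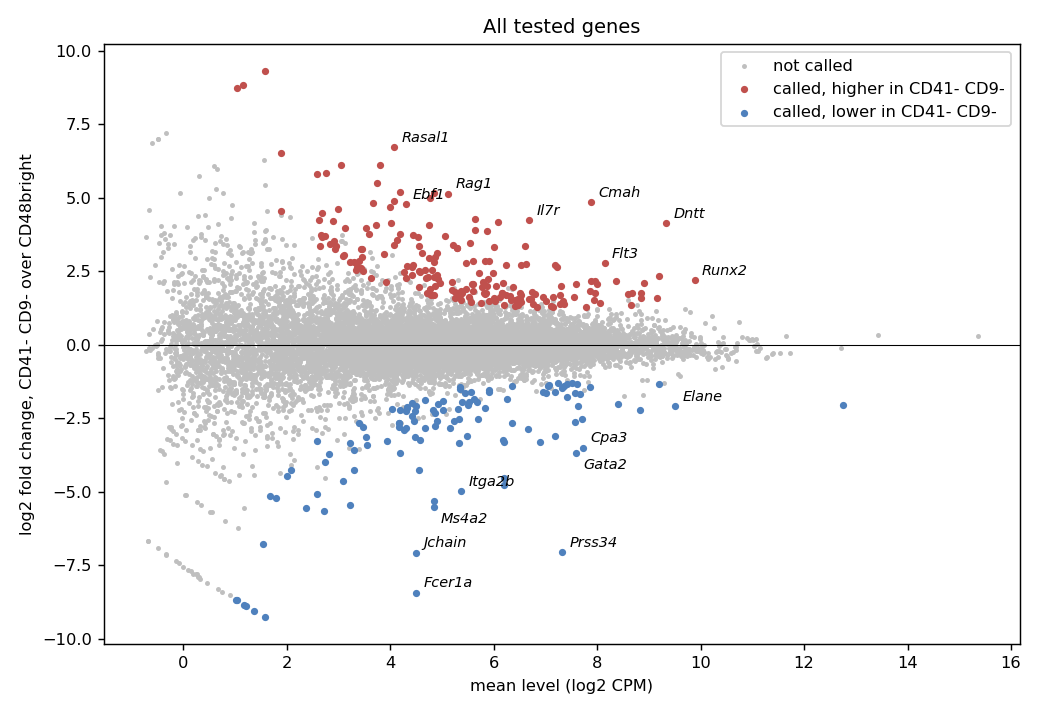
Mean level (log2 CPM, x axis) and log2 fold change of CD41- CD9- over CD48bright (y axis) of all 12437 tested genes, with the called genes coloured by direction. The 192 called genes above 0 include Dntt and Rag1, and the 115 below 0 include Fcer1a and Itga2b; for genes with no count in a population the plotted fold change depends on the prior count of the fit.

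The genes of the sort markers were read first, as a check of the labels. Itga2b, which encodes CD41 and lies on chromosome 11 (102453297 to 102469883, mm10), had 2.87 and 2.21 CPM in CD41- CD9- libraries, against 94.99 and 65.2 CPM in CD48bright libraries. It was lower in CD41- CD9- cells (log2 fold change -4.97 ± 0.43 SE, edgeR adjusted p = 0.00035, 0.0103 with all 8 libraries), and the groups did not overlap. Cd9 had 2.87 and 12.2 CPM in CD41- CD9- libraries and 36.3 and 46.9 CPM in CD48bright libraries, which did not overlap either but missed the threshold (edgeR adjusted p = 0.0551). Both levels lay in the direction of the gates. Cd48 had 224 and 249 CPM in CD41- CD9- libraries and 181 and 232 CPM in CD48bright libraries, so the ranges overlapped (log2 fold change 0.20, edgeR adjusted p = 0.907). Of the populations compared here, only the CD48bright one was labelled with a gate on CD48. Cd34 had 242 and 401 CPM in CD41- CD9- libraries, against 236 and 403 CPM in CD48bright libraries. Kit, the receptor for stem cell factor, had 243 and 363 CPM in CD41- CD9- libraries and 639 and 754 CPM in CD48bright libraries, and its log2 fold change of -1.20 missed the threshold (edgeR adjusted p = 0.0864). Of the CD16/32 genes, Fcgr3 missed it too at a log2 fold change of -2.34 (edgeR adjusted p = 0.0802), and Fcgr2b at -0.34 (edgeR adjusted p = 0.866); these close relatives can share reads.

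Of 15 early lymphoid genes, 9 were higher in CD41- CD9- cells and none lower, with a median log2 fold change of 2.18 over the list and -0.01 over all genes. With all 8 libraries in the fit, 4 of them were called higher. Dntt, the polymerase that adds bases without a template at the joints of rearranged receptor genes, had 1524 and 919 CPM in CD41- CD9- libraries and 40.5 and 99.7 CPM in CD48bright libraries. Its log2 fold change was 4.13 ± 0.48 SE (edgeR adjusted p = 0.00143), and the lower CD41- CD9- library stood well above the higher CD48bright one. Per transcript length, Dntt was at 1486 and 988 TPM in CD41- CD9- libraries, rank 99 and 140 of all genes, against 35.3 and 106 TPM in CD48bright libraries, rank 4103 and 1501. Il7r, the receptor chain for interleukin 7, had 202 and 189.5 CPM in CD41- CD9- libraries, against 6.80 and 14.2 CPM in CD48bright libraries (log2 fold change 4.24 ± 0.41 SE, edgeR adjusted p = 0.000484). CD48bright cells were thus low in it without being at 0.

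Rag1 and Rag2, neighbours on chromosome 2 that encode the recombinase of antigen receptor genes, were higher together. Rag1 (101638252 to 101649532, mm10) had 67.1 and 67.8 CPM in CD41- CD9- libraries and 1.32 and 2.60 CPM in CD48bright libraries, a log2 fold change of 5.14 ± 0.47 SE (edgeR adjusted p = 0.000373). Rag2 had 111 and 76.7 CPM in CD41- CD9- libraries and 3.16 and 6.68 CPM in CD48bright libraries, a log2 fold change of 4.28 (edgeR adjusted p = 0.00112). The libraries carry no strand, and B230118H07Rik, which overlaps Rag2, had 939 counts against 2463 of Rag2, so the level of Rag2 is less certain than that of Rag1. With all 8 libraries in the fit, however, Rag2 kept its call and Rag1 lost it. Flt3, the receptor of lymphoid and dendritic progenitors, had 578.5 and 409 CPM in CD41- CD9- libraries, against 63.2 and 82.1 CPM in CD48bright libraries (log2 fold change 2.77, edgeR adjusted p = 0.00154). Satb1, a chromatin organiser of lymphocytes, and Ly6d, a surface protein of lymphoid progenitors, were also called higher, by 2.17 and 3.31 on the log2 scale (edgeR adjusted p = 0.00738 and 0.00348).

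**Figure D2:**
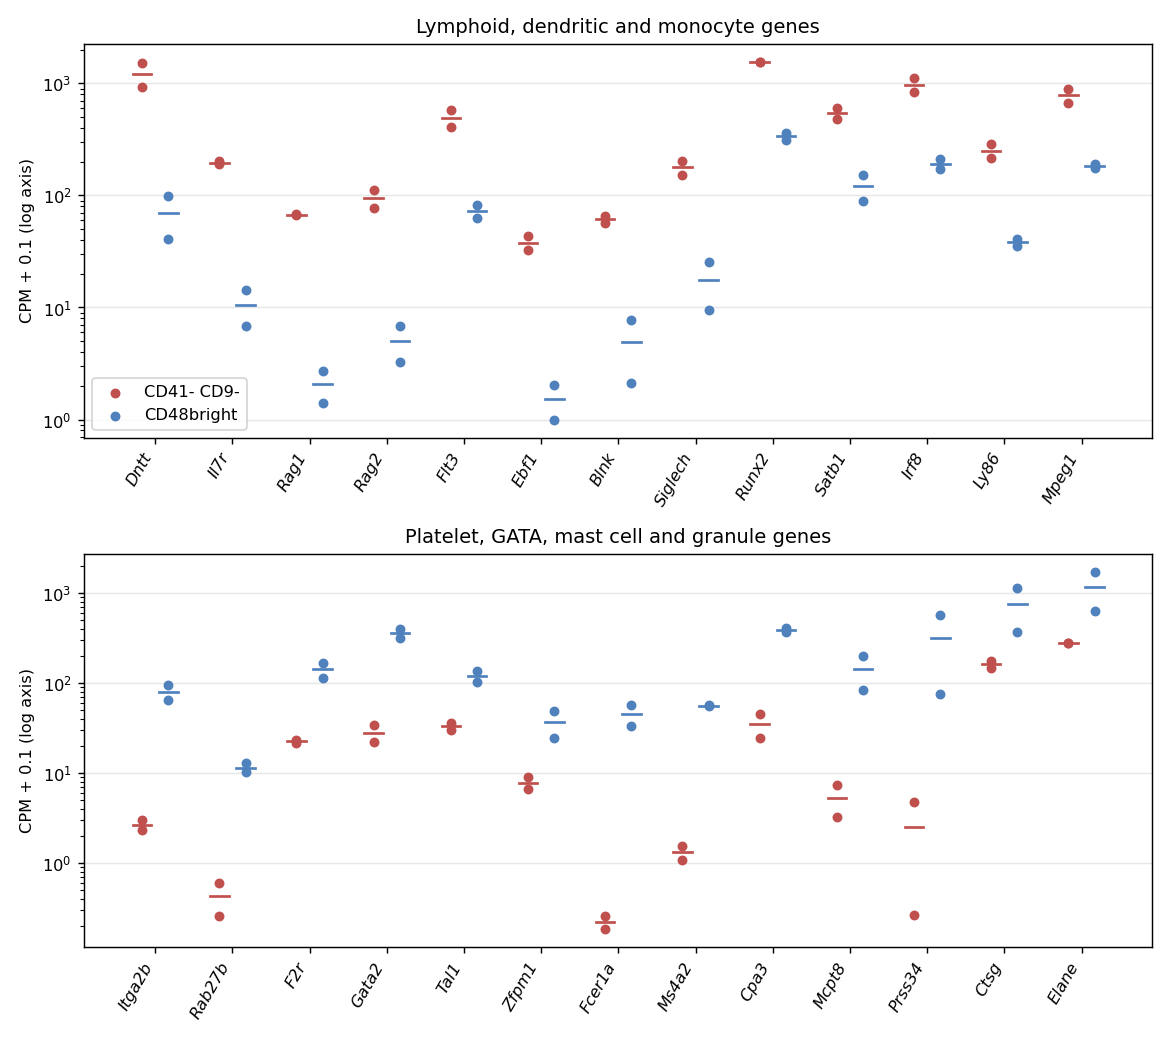
Levels (CPM + 0.1, log axis) of 13 genes higher in CD41- CD9- cells (top) and 13 genes lower in them (bottom), with a dot for each library and a bar for the mean of 2 libraries, CD41- CD9- to the left of CD48bright. All genes shown were picked from the called genes, so that the dots of the populations do not overlap was largely given by that choice. The CD48bright dots of Elane, Ctsg and Prss34 lie far apart.

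The bases before the start of Dntt and Rag1 are shown as examples of the list that hold one of the letters searched; of its 8 called members with a promoter at hand, AGATAA stood in Dntt and Lax1 and CAGGTG in Rag1, and the other 5 held neither. They are RefSeq sequence of build GRCm38.p6 (the assembly that mm10 represents), written 5′ to 3′ on the strand of the gene, with capitals on AGATAA, the letters a GATA factor reads, and on CAGGTG, an E-box that E proteins read, each searched on both strands.

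Dntt, chr19:41029025-41029274, plus strand: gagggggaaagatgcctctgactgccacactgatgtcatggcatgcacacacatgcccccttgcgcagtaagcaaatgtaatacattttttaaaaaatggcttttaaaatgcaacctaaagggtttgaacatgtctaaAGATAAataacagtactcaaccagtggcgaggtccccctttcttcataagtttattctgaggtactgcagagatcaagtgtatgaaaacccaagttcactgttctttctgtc

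Rag1, chr2:101649533-101649782, minus strand: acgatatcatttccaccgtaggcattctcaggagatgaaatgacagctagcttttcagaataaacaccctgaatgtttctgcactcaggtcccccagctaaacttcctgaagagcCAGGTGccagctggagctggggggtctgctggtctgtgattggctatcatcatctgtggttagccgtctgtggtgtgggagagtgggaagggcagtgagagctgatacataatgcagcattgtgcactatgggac

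Of the 250 bases of Dntt, AGATAA began 112 bases before the start, and CAGGTG of Rag1 began 135 bases before it. Over the promoters at hand, CAGGTG stood in 25 of 155 genes called higher (16.1%), 14 of 99 called lower (14.1%) and 1449 of 9962 tested (14.5%). The share was thus close to that of all genes in both directions.

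Of 18 B lineage genes, all tested, 8 were higher in CD41- CD9- cells and none lower, at a median log2 fold change of 2.48; with all 8 libraries in the fit 1 was called. Rag1 is a member of both lists. Ebf1, the transcription factor that sets up the B lineage, had 32.3 and 43.4 CPM in CD41- CD9- libraries and 0.896 and 1.95 CPM in CD48bright libraries, a log2 fold change of 4.77 ± 0.56 SE (edgeR adjusted p = 0.00143). Blnk, an adaptor of B cell receptor signalling, had 65.8 and 57.2 CPM in CD41- CD9- libraries and 2.002 and 7.61 CPM in CD48bright libraries (log2 fold change 3.71, edgeR adjusted p = 0.00582). The later B lineage factor Pax5, chosen after its values were seen, had 7.18 and 1.96 CPM in CD41- CD9- libraries and 0.58 and 2.23 CPM in CD48bright libraries, which overlapped (edgeR adjusted p = 0.627). Vpreb1, of the surrogate light chain, was near 0 in every library, at 1.36 and 1.64 CPM in CD41- CD9- libraries and 1.53 and 2.69 CPM in CD48bright libraries, and was also chosen after its values were seen.

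Among 16 tested genes of T, NK and innate lymphoid cells, of 19 listed, 3 were higher in CD41- CD9- cells and 1 lower, with a median log2 fold change of 0.34. Ccr9, a chemokine receptor for homing to thymus and gut, had 103 and 68.4 CPM in CD41- CD9- libraries, against 4.90 and 10.7 CPM in CD48bright libraries (log2 fold change 3.47, edgeR adjusted p = 0.00245). Lck, a kinase of T cell receptor signalling, was higher by 2.54 and Cd7 by 2.43 on the log2 scale (edgeR adjusted p = 0.0128 and 0.014). Nkg7, a granule membrane protein of NK cells that is also listed with neutrophil granule genes, was lower, with 63.1 and 43.3 CPM in CD41- CD9- libraries and 405 and 248.5 CPM in CD48bright libraries (edgeR adjusted p = 0.00319). No member of this list was called with all 8 libraries.

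Of 17 tested plasmacytoid dendritic cell genes, of 18 listed, 10 were higher in CD41- CD9- cells and none lower, at a median log2 fold change of 2.20, and 1 of them was called with all 8 libraries. Of these 10, Ly6d is also on the early lymphoid list and Blnk on the B lineage list. Ccr9 is also on the list of T, NK and innate lymphoid genes. Siglech, a surface lectin of plasmacytoid dendritic cells, had 202 and 153 CPM in CD41- CD9- libraries and 9.43 and 25.4 CPM in CD48bright libraries (log2 fold change 3.36 ± 0.46 SE, edgeR adjusted p = 0.00325). Runx2, a transcription factor that mature plasmacytoid dendritic cells need, had 1556 and 1544 CPM in CD41- CD9- libraries and 310.3 and 364 CPM in CD48bright libraries (log2 fold change 2.20, edgeR adjusted p = 0.00431). It kept its call with all 8 libraries. Atp1b1, a subunit of the sodium pump, was higher by 2.72 on the log2 scale (edgeR adjusted p = 0.00163), though Nme7, which overlaps it, had 1065 counts against 4656 of Atp1b1. Tcf4, the E protein that sets up plasmacytoid dendritic cells, had 489 and 692 CPM in CD41- CD9- libraries and 115 and 242 CPM in CD48bright libraries (edgeR adjusted p = 0.0412, but 0.0936 without CD48bright replicate 1), and was chosen after its values were seen.

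Of 20 tested conventional dendritic cell genes, of 21 listed, 3 were higher in CD41- CD9- cells and none lower, while the median of the list was -0.10; without CD48bright replicate 2, 6 were called. Irf8, the transcription factor of dendritic cells and monocytes, had 1119 and 831 CPM in CD41- CD9- libraries, against 172 and 210.2 CPM in CD48bright libraries (log2 fold change 2.35 ± 0.33 SE, edgeR adjusted p = 0.00348). Itgax, the integrin chain CD11c, and Kmo, an enzyme of tryptophan breakdown, were higher by 1.99 and 2.25 on the log2 scale. No member was called with all 8 libraries.

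Of 21 tested monocyte and macrophage genes, of 22 listed, 8 were higher in CD41- CD9- cells and none lower, with a median log2 fold change of 1.16 and no call with all 8 libraries. Ly86, a partner of a Toll-like receptor relative, had 285 and 217 CPM in CD41- CD9- libraries and 40.6 and 35.4 CPM in CD48bright libraries (log2 fold change 2.72 ± 0.31 SE, edgeR adjusted p = 0.00143). Mpeg1, a pore-forming protein of phagocytes, had 892 and 672 CPM in CD41- CD9- libraries and 191 and 175 CPM in CD48bright libraries (log2 fold change 2.10, edgeR adjusted p = 0.00486). Ctss, a lysosomal protease, and F13a1, a clotting factor subunit of monocytes, were higher by 1.78 and 1.77 on the log2 scale. Of 12 mature neutrophil genes with a count, 11 were tested. Their summed level was 746.7 and 56.6 CPM in CD41- CD9- libraries and 171.8 and 126.6 CPM in CD48bright libraries, so CD41- CD9- replicate 1 stood apart. Mmp9, the member not tested, had 198 counts in CD41- CD9- libraries and 12 in CD48bright libraries. S100a8, a defining gene of mature neutrophils that was chosen after its values were seen, was at 126 and 11.6 CPM in CD41- CD9- libraries and 26.5 and 17.8 CPM in CD48bright libraries. The median log2 fold change of these neutrophil genes was 1.86, and -1.23 without CD41- CD9- replicate 1; without that library 6 monocyte genes were called. Of the neutrophil genes Cxcr2 alone was called, but 11 of the 12 were called without CD41- CD9- replicate 2. The part of these cells in the monocyte result was not tested.

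Neutrophil primary granule genes went the other way, with 6 of 17 lower in CD41- CD9- cells, none higher and a median log2 fold change of -1.46. Elane, the neutrophil elastase, had 279 and 277 CPM in CD41- CD9- libraries and 1728 and 623 CPM in CD48bright libraries (log2 fold change -2.08 ± 0.44 SE, edgeR adjusted p = 0.0332). Ctsg, the granule protease cathepsin G, had 175 and 148 CPM in CD41- CD9- libraries and 1130.0 and 371 CPM in CD48bright libraries (log2 fold change -2.22, edgeR adjusted p = 0.0305). The CD48bright libraries differed several-fold from each other, and both calls rested on the higher one: without CD48bright replicate 1 the edgeR adjusted p was 0.0804 for Elane and 0.0596 for Ctsg. Ms4a3, a membrane protein of granulocyte and monocyte progenitors, had 25.3 and 18.8 CPM in CD41- CD9- libraries and 338 and 92.6 CPM in CD48bright libraries (log2 fold change -3.29, edgeR adjusted p = 0.00793). The number of the 17 called was 2 without CD48bright replicate 1, 13 without CD48bright replicate 2 and 10 without CD41- CD9- replicate 1, and 0 with all 8 libraries. In CD41- CD9- cells Elane was still at 744 and 800.4 TPM, rank 175 and 164 of all genes per length, against 4140 and 1780 TPM in CD48bright cells, rank 37 and 82.

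Mast cell, basophil and eosinophil genes made up the list with the most members lower in CD41- CD9- cells among the 22 lists. Of its 17 tested genes, of 21 listed, 12 were lower and 1 higher, the median log2 fold change was -3.50, and 3 were lower with all 8 libraries. Fcer1a, the IgE-binding chain of the high-affinity IgE receptor, had 0.16 and 0.0818 CPM in CD41- CD9- libraries, 3 counts in all, and 56.1 and 33.4 CPM in CD48bright libraries. The ratio of CD48bright over CD41- CD9- was 394.9, with a 95% counting interval of 134.9 to 1917 (edgeR adjusted p = 0.00034). Ms4a2, the beta chain of the same receptor, had 1.44 and 0.982 CPM in CD41- CD9- libraries and 55.5 and 56.2 CPM in CD48bright libraries (log2 fold change -5.52 ± 0.46 SE, edgeR adjusted p = 0.00035). Both receptor chains were called in every alternative.

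Of the granule proteases, Cpa3, the mast cell carboxypeptidase, had 45.1 and 24.1 CPM in CD41- CD9- libraries, against 369.7 and 412 CPM in CD48bright libraries (log2 fold change -3.50 ± 0.37 SE, edgeR adjusted p = 0.00112). Mcpt8, a basophil protease, had 3.11 and 7.28 CPM in CD41- CD9- libraries, against 200.2 and 83.1 CPM in CD48bright libraries (log2 fold change -4.77, edgeR adjusted p = 0.00143). Prss34, a further basophil protease, had 4.63 and 0.164 CPM in CD41- CD9- libraries, against 561.5 and 74.7 CPM in CD48bright libraries (log2 fold change -7.04, edgeR adjusted p = 0.00824). The groups did not overlap for Prss34, which the rule that named it required. Each population's libraries were far apart for it, and with limma-voom it was not called (adjusted p = 0.117). Gzmb, a protease of cytotoxic cells that basophils and mast cells can also hold, was lower (log2 fold change -5.65, edgeR adjusted p = 0.029), and lost the call without CD48bright replicate 1 (adjusted p = 0.0885). Il1rl1, the receptor for interleukin 33, had 3.91 and 13.7 CPM in CD41- CD9- libraries and 52.7 and 71.2 CPM in CD48bright libraries (edgeR adjusted p = 0.0195). Cyp11a1, which had no count in CD41- CD9- libraries, was at least 52.7-fold lower there, from a floor of 3 counts over the group. Its call was lost without CD48bright replicate 1 (adjusted p = 0.188). The tryptase genes Tpsb2 and Tpsab1, of connective tissue mast cells, had no count in any of the 4 libraries. Ccl3, a chemokine of many myeloid cells, was the member that was higher, with 284 and 284 CPM in CD41- CD9- libraries and 56.0 and 128.5 CPM in CD48bright libraries (edgeR adjusted p = 0.0494, 0.159 without CD48bright replicate 1).

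Sequence before the start is shown for 4 of the mast cell and basophil genes that were low together in CD41- CD9- cells, picked because each holds AGATAA or its reverse complement TTATCT, given in capitals. Of the 13 called members of the list, 7 held it and 6, Mcpt8 and Gata2 among them, did not; of the 16 tested members with a promoter, 8 held it. The source, build and direction are those of the Dntt and Rag1 sequences, and start means the gene start that the RefSeq entry uses.

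Fcer1a, chr1:173227230-173227479, minus strand: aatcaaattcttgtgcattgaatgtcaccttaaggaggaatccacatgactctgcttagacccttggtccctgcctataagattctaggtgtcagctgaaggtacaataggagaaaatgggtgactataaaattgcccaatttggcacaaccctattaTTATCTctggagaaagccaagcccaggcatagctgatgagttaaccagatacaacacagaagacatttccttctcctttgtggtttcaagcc

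Ms4a2, chr19:11623720-11623969, minus strand: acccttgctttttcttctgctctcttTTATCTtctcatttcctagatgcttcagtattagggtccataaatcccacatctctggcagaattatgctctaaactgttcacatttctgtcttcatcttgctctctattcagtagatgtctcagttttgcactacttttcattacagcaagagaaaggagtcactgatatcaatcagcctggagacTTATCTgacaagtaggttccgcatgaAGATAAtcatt

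Cpa3, chr3:20242182-20242431, minus strand: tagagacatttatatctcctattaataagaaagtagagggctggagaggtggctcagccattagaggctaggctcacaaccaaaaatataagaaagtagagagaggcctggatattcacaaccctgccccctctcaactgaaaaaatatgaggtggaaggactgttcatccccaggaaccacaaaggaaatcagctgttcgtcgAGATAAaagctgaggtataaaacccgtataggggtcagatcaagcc

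Prss34, chr17:25298144-25298393, plus strand: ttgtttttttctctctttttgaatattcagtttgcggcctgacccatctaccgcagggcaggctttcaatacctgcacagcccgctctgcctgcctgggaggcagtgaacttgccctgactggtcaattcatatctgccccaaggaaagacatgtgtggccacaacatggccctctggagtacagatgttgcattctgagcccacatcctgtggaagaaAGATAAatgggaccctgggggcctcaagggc

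The letters began 92 bases before the start of Fcer1a, 224, 37 and 11 bases before that of Ms4a2, 46 before that of Cpa3 and 31 before that of Prss34. AGATAA on either strand stood in 14 of 99 genes called lower (14.1%), 17 of 155 called higher and 605 of 9962 tested (6.07%). Both called sets held it at a higher share than all genes, and the share was not tested. GAGGAAGT, read by ETS factors, stood in 5.16% of genes called higher, 4.04% of genes called lower and 2.66% of those tested. A match is a description of letters and says nothing of binding.

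Of 22 tested megakaryocyte and platelet genes, of 28 listed, 7 were lower in CD41- CD9- cells and none higher, at a median log2 fold change of -1.51. Itga2b, used for the gate, is 1 of the 7. With all 8 libraries in the fit 2 were called lower, Itga2b among them. Rab27b, which tethers platelet granules, had 0.16 and 0.491 CPM in CD41- CD9- libraries and 10.01 and 12.6 CPM in CD48bright libraries (log2 fold change -5.09 ± 0.89 SE, edgeR adjusted p = 0.0128). F2r, a thrombin receptor, had 23.1 and 21.6 CPM in CD41- CD9- libraries and 168 and 114 CPM in CD48bright libraries (log2 fold change -2.66, edgeR adjusted p = 0.00193). The platelet genes Pf4, Treml1 and Sdpr had no count in CD41- CD9- libraries and were at least 35.5-fold, 36.3-fold and 39.4-fold lower there. Their levels were low in CD48bright libraries too, with Pf4 at 4.32 and 4.27 CPM, and Pf4 lost its call without either CD41- CD9- library (adjusted p = 0.0549 and 0.0511). Treml1 lost it without CD41- CD9- replicate 1, CD41- CD9- replicate 2 or CD48bright replicate 1 (adjusted p = 0.0628, 0.0587 and 0.0804). Without CD41- CD9- replicate 1, 4 of the 22 were called.

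Among 20 transcription factors of the GATA circuit, 6 were lower in CD41- CD9- cells and none higher, at a median log2 fold change of -0.82; Gata2 was also called with all 8 libraries. Gata2 had 22.2 and 33.8 CPM in CD41- CD9- libraries and 401 and 316 CPM in CD48bright libraries (log2 fold change -3.68 ± 0.35 SE, edgeR adjusted p = 0.000434). Tal1, a partner of GATA factors, had 29.8 and 36.2 CPM in CD41- CD9- libraries and 136 and 102 CPM in CD48bright libraries (log2 fold change -1.85, edgeR adjusted p = 0.0123). Zfpm1, the GATA cofactor FOG1, was lower by a log2 fold change of -2.25 (edgeR adjusted p = 0.0323, 0.121 without CD48bright replicate 1). Gata1, the erythroid and megakaryocyte factor, had 8.77 and 1.31 CPM in CD41- CD9- libraries and 34.98 and 28.3 CPM in CD48bright libraries, and missed the threshold (edgeR adjusted p = 0.0864). It was chosen after its values were seen. Of 28 lymphoid and dendritic transcription factors, 9 were higher and none lower, at a median of 1.10. They include Irf8, Ebf1, Satb1, Runx2 and Tcf4 given above, and Ebf1 and Runx2 were called with all 8 libraries. Most of the 9 are also called members of the early lymphoid, B lineage or dendritic lists, so this count largely repeats those.

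**Figure D3:**
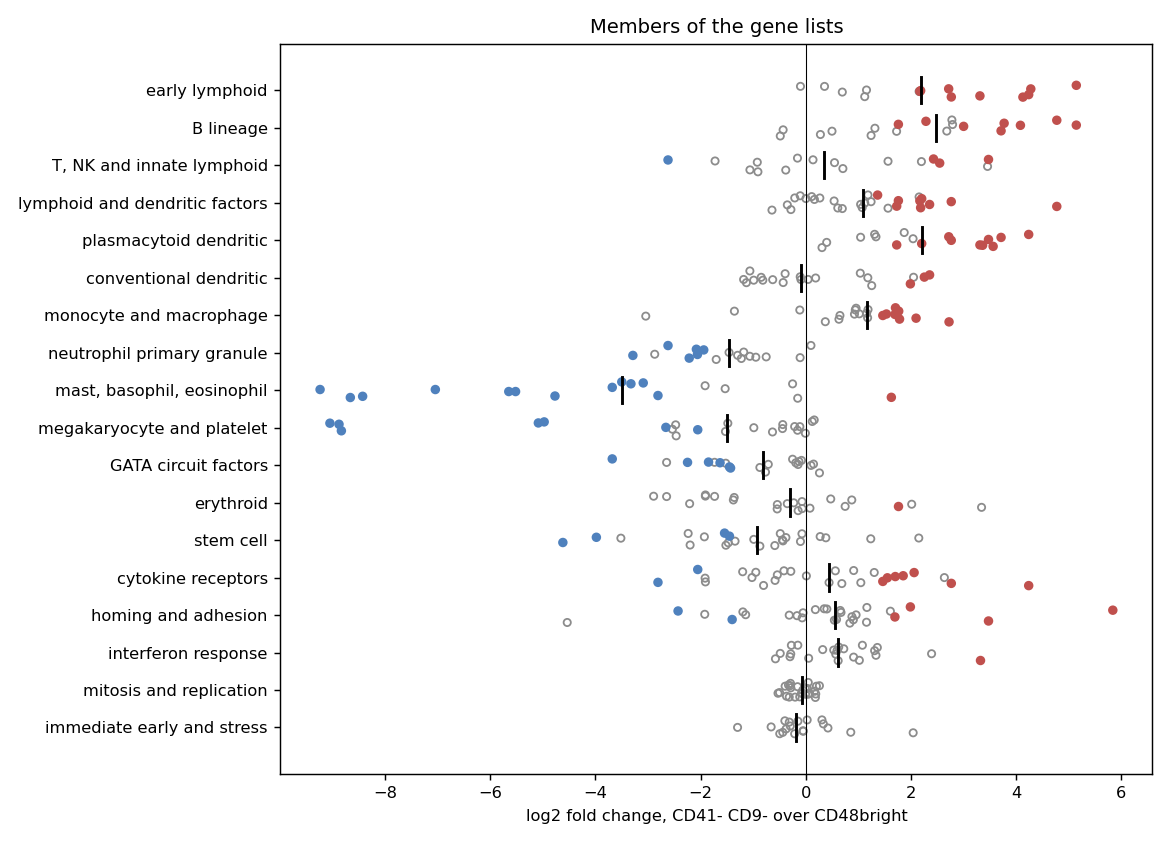
Log2 fold change of CD41- CD9- over CD48bright (x axis) of every tested member of 18 gene lists (rows); filled dots are called, open dots are not, and the black tick is the list's median. Medians run from -3.50 for mast cell, basophil and eosinophil genes to 2.48 for B lineage genes, with mitosis and replication at -0.08.

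Among 24 stem cell genes, 4 were lower in CD41- CD9- cells and none higher, at a median log2 fold change of -0.93 and with no call with all 8 libraries. Tie1, a receptor of endothelial and stem cells, was lower by a log2 fold change of -4.62 (edgeR adjusted p = 0.0169) and Pdzk1ip1 by -3.98 (edgeR adjusted p = 0.0314). A further member, Ifitm1, an interferon-induced membrane protein, had 25.2 and 36.1 CPM in CD41- CD9- libraries and 111 and 68.1 CPM in CD48bright libraries. Its call (edgeR adjusted p = 0.0488) was lost without CD41- CD9- replicate 1 (0.171) and without CD48bright replicate 1 (0.142). Of 22 tested erythroid genes, of 23 listed, Tfrc alone was called, or 4.55% called higher against 1.54% of all tested genes. Tfrc lost its call with all 8 libraries. This transferrin receptor, which dividing cells also need, had 618 and 808 CPM in CD41- CD9- libraries and 175 and 246.5 CPM in CD48bright libraries (log2 fold change 1.76, edgeR adjusted p = 0.0159). The erythroid median was -0.29, and 3, 3 and 5 members were called without CD41- CD9- replicate 1, CD48bright replicate 1 and CD48bright replicate 2.

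Of 27 tested cytokine receptor genes, of 28 listed, 7 were higher in CD41- CD9- cells and 2 lower, at a median of 0.44. With all 8 libraries in the fit 2 were called higher, Flt3 and Il7r, and none lower. Beside Flt3 and Il7r, Il6st, the shared signal chain of the interleukin 6 family, had 449 and 375 CPM in CD41- CD9- libraries and 90.2 and 108 CPM in CD48bright libraries (log2 fold change 2.06, edgeR adjusted p = 0.00445). Csf2rb2, a beta chain for interleukin 3 in mice, had 158 and 158 CPM in CD41- CD9- libraries and 57.8 and 50.1 CPM in CD48bright libraries (log2 fold change 1.55, edgeR adjusted p = 0.0188). Il1rl1, given above, was 1 of the 2 lower. Of 28 homing and adhesion genes, 4 were higher and 2 lower, at a median of 0.56 and with no call with all 8 libraries. Cx3cr1, the fractalkine receptor, was higher by 1.69 on the log2 scale (edgeR adjusted p = 0.0389, 0.0904 without CD41- CD9- replicate 2). Cxcr2, a receptor for neutrophil chemokines, was lower, with 8.46 and 4.83 CPM in CD41- CD9- libraries and 27.2 and 44.5 CPM in CD48bright libraries (edgeR adjusted p = 0.0239). Itga6, a laminin-binding integrin chain, was lower by a log2 fold change of -1.40 (edgeR adjusted p = 0.0422), a call that was lost without CD41- CD9- replicate 1 (0.174), CD41- CD9- replicate 2 (0.058) or CD48bright replicate 2 (0.129).

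None of 26 genes of mitosis and replication was called by edgeR with the 4 libraries or under any of the 12 alternatives, 0 had an unadjusted p below 0.05, and their median log2 fold change was -0.08. Mki67, a protein of dividing cells, had 1814 and 2509 CPM in CD41- CD9- libraries and 1469 and 2343 CPM in CD48bright libraries, and Pcna, the replication clamp, had 432 and 403.5 CPM in CD41- CD9- libraries and 465 and 404 CPM in CD48bright libraries. The ranges overlapped for Mki67 (log2 fold change 0.18 ± 0.36 SE) and for Pcna (-0.06 ± 0.29 SE), and a small difference was not detectable with 2 libraries a population. Of 18 immediate early and stress genes, edgeR called 0 with the 4 libraries (4 at an unadjusted p below 0.05), but 4 with the replicate block in 4 libraries, 2 with DESeq2, 2 with no filter, and 1 each with 6 libraries, without CD41- CD9- replicate 2 and without CD48bright replicate 1. Fos, an immediate early transcription factor, was not called, at 1089 and 905 CPM in CD41- CD9- libraries and 763 and 850.2 CPM in CD48bright libraries (edgeR adjusted p = 0.834). Of 22 interferon response genes, Ifi44 alone was called, or 4.55% called higher against 1.54% of all tested genes. Its call was lost with all 8 libraries. Ifi44 had 62.3 and 79.2 CPM in CD41- CD9- libraries and 8.85 and 5.38 CPM in CD48bright libraries (log2 fold change 3.301, edgeR adjusted p = 0.00163). The median of that list was 0.60, and 2 and 3 members were called without CD41- CD9- replicate 2 and without CD48bright replicate 1.

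Among well expressed called genes, those with the largest log2 fold changes lay partly outside these lists. Rasal1, which switches off Ras, had 30.1 and 36.2 CPM in CD41- CD9- libraries and 0.263 and 0.371 CPM in CD48bright libraries (log2 fold change 6.71 ± 0.61 SE, edgeR adjusted p = 0.000373). Blk, a kinase of B cell receptor signalling, had 21.9 and 10.1 CPM in CD41- CD9- libraries and 0.316 and 0.0928 CPM in CD48bright libraries (log2 fold change 6.11, edgeR adjusted p = 0.00426). Cmah, which makes a form of sialic acid, had 512 and 404 CPM in CD41- CD9- libraries and 12.1 and 19.7 CPM in CD48bright libraries (log2 fold change 4.86, edgeR adjusted p = 0.00034). Of these, Cmah was called under every alternative. Emp1, a membrane protein, Tbxa2r, the thromboxane receptor, Xkrx, Gpr25 and Tmtc1 were higher by 4.87 to 6.11 on the log2 scale; the count of Tmtc1 is uncertain, since Rps4l, which overlaps it, had 371 counts against 682. Ccr7, a chemokine receptor for homing to lymph nodes, had 19.4 and 6.95 CPM in CD41- CD9- libraries and 0.316 and 0.0928 CPM in CD48bright libraries, and its call was lost without CD41- CD9- replicate 1 (edgeR adjusted p = 0.0791).

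On the lower side, Slc7a8, an amino acid transporter, had 2.31 and 0.491 CPM in CD41- CD9- libraries and 67.2 and 44.5 CPM in CD48bright libraries (log2 fold change -5.30 ± 0.63 SE, edgeR adjusted p = 0.00154), and was called under every alternative. Gm14085 and Phldb2 were lower by log2 fold changes of -5.44 and -5.53, at 15.8 and 20.04 CPM and at 10.9 and 8.72 CPM in CD48bright libraries. Of 4 tested markers of plasma cells, 1 was called in each direction, and none with all 8 libraries. Jchain, the chain that joins antibody units, had 0.638 and 0 CPM in CD41- CD9- libraries and 50.4 and 38.2 CPM in CD48bright libraries (log2 fold change -7.07, edgeR adjusted p = 0.00143). Sdc1, the syndecan that marks plasma cells, had 40.2 and 30.2 CPM in CD41- CD9- libraries and 1.58 and 0.186 CPM in CD48bright libraries (log2 fold change 5.19, edgeR adjusted p = 0.00406). The 4 tested plasma cell genes summed to 203 and 230 CPM in CD41- CD9- libraries and 235 and 202 CPM in CD48bright libraries, which overlapped. Of the untested members, Tnfrsf17, the receptor BCMA, had no count in any of the 4 libraries. Derl3, chosen after its values were seen, had 10 counts in CD41- CD9- libraries and 31 in CD48bright libraries.

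Stromal and endothelial genes were scarce: 4 of 14 were tested. These 4 summed to 12.8 and 4.91 CPM in CD41- CD9- libraries and 10.1 and 15.2 CPM in CD48bright libraries. Bgn, a matrix protein, was the called member, with 0.0798 and 0 CPM in CD41- CD9- libraries and 5.16 and 5.66 CPM in CD48bright libraries. The ratio of CD48bright over CD41- CD9- was 132.3 with a 95% counting interval of 23.4 to 5257 (edgeR adjusted p = 0.0309, 0.0541 without CD41- CD9- replicate 2). Of the untested members, Col3a1, Sparc, Lum and Adipoq had no count in either population. The other untested members all had more counts in CD48bright libraries. Among them, and chosen after their values were seen, Col1a2 had 0 counts in CD41- CD9- libraries and 80 in CD48bright libraries. In the same order, Col1a1 had 7 and 28 counts and Lepr 1 and 24. What part cells of these types have in the results above was not tested.

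The other populations show where these genes lay in the series, with levels scaled over all 8 libraries. Of the 192 genes higher in CD41- CD9- cells, 187 had their highest mean of the 4 populations in those cells, and of the 115 lower genes, 111 had their lowest mean there. These genes were picked by their difference from CD48bright cells in the same libraries, which favours such an order. The share over all tested genes was not taken, so the counts are descriptions. The highest mean of the 115 was in CD48bright cells for 27 of them, so the rest were higher still in CD34bright or CD48dim cells. Dntt averaged 1205 CPM in CD41- CD9- cells, 14.7 CPM in CD34bright cells, 1.12 CPM in CD48dim cells and 69.1 CPM in CD48bright cells. Siglech averaged 175 CPM in CD41- CD9- cells, 4.08 CPM in CD34bright cells and 17.2 CPM in CD48bright cells, and had no count in CD48dim cells. Cpa3 averaged 34.1 CPM in CD41- CD9- cells, 481 CPM in CD34bright cells, 35.6 CPM in CD48dim cells and 385 CPM in CD48bright cells. Its means in CD41- CD9- and CD48dim cells were near each other, but the CD48dim libraries lay far apart. They were at 12.9 and 58.3 CPM, against 44.5 and 23.7 CPM in CD41- CD9- libraries. These levels were not tested against each other.

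**Figure D4:**
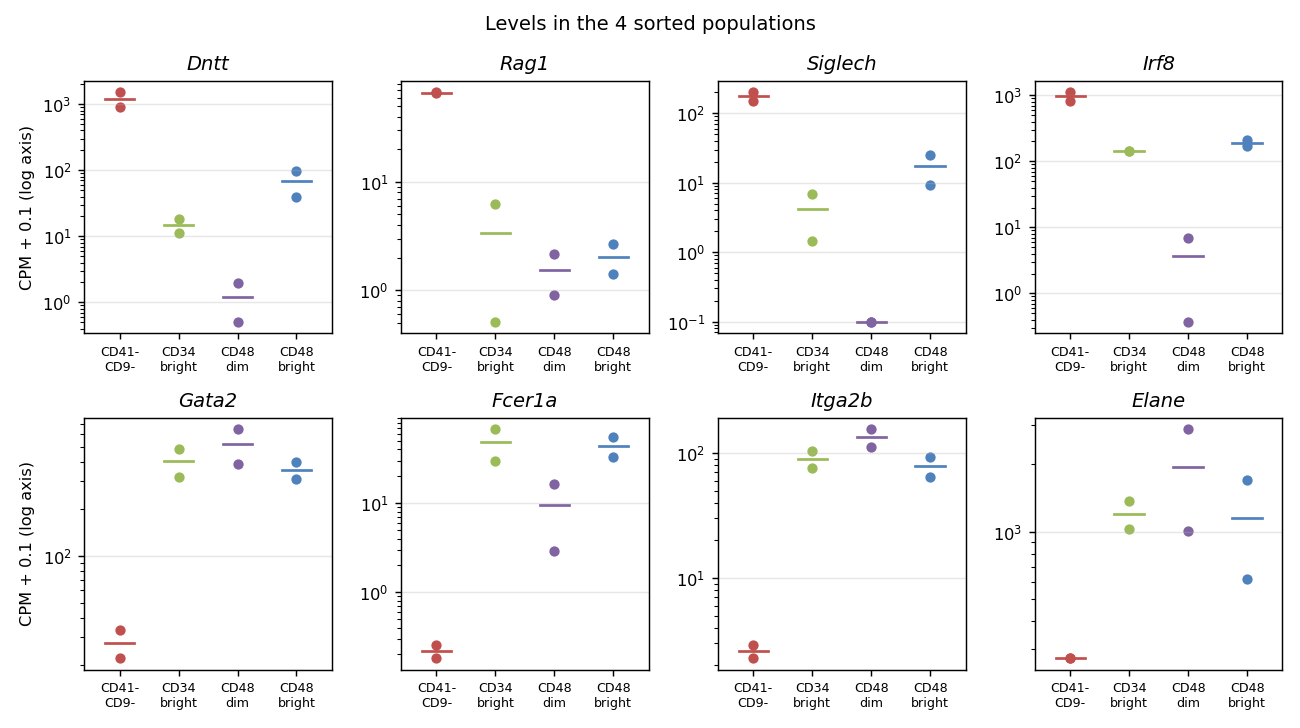
Levels (CPM scaled over all 8 libraries) of 8 genes in CD41- CD9-, CD34bright, CD48dim and CD48bright cells, with a dot for each library and a bar for the mean of 2 libraries. Dntt, Rag1, Siglech and Irf8 were highest in CD41- CD9- cells, and Gata2, Fcer1a, Itga2b and Elane were lowest there. All 8 were picked from the genes called between CD41- CD9- and CD48bright cells.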

How the data were processed

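Expected counts and TPM (levels scaled for effective length) of each gene were read from the deposited gene tables, whose columns are RSEM's per the file headers. The submitters' processing notes name the build mm10 with edgeR 3.30.3, RSEM 1.3.2 and STAR 2.7.2a, without settings. Per the labels' protocols, 5 ng of RNA was amplified to cDNA before library making, and the libraries carry no strand. Amplified reads are not independent molecules, so counting intervals and floors cover counting error only.

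Counts were rounded (in these 4 libraries at most 1.94% of genes had a value that was not whole), filtered with filterByExpr, scaled by TMM and tested with the quasi-likelihood test of edgeR 4.0.16 in R 4.3.3, fitted on the 4 libraries with no covariate. P-values were adjusted by Benjamini-Hochberg over all 12437 genes tested. The biological coefficient of variation was 37.3% with 2 residual degrees of freedom. SE is the log2 fold change over the root of F, an approximation. The main choice of libraries, the 22 gene lists and the members were made with earlier results of these data known. Genes named are the 7 sort genes, the 12 protein-coding genes with the largest changes in each direction at a mean of at least 8 CPM with groups not overlapping, and up to 4 called members of each list in each direction by smallest p. Other genes are named as chosen after their values were seen, as untested members or as counts of 0. Some genes that this rule names are not reported here. TPM was used only for levels between genes. The deposited second count table per library was not used. Alternatives were all 8 or 6 libraries, other size factors, no filter, DESeq2 1.42.0, limma-voom (limma 3.58.1), a replicate block and leaving out each library. The test was checked on simulated data. The replicate libraries differed beyond sampling noise. Gene positions and promoters are RefSeq, GRCm38.p6.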

Additional observations from a re-analysis of the deposited data

How the results depend on the processing

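All 307 called genes kept their sign under the 12 alternatives, while the number called moved. It was 28 with all 8 libraries (11 higher, 17 lower), 657 with no filter (390 higher, 267 lower), 653 with DESeq2 (401 higher, 252 lower), 380 with 6 libraries, 277 with DESeq2's size factors and 253 with limma-voom (229 shared with the 307). Leaving out a library gave 336 to 603 calls (184 to 350 higher, 138 to 253 lower), 216 to 288 of them shared, where the lone library is assumed to vary like the others; the highest, 603, was without CD48bright replicate 2. With the replicate block, 1070 genes were called in 4 libraries (660 higher, 410 lower) and 99 in all 8 (42 higher, 57 lower, 97 of the 99 among the 307). Same-numbered libraries deviated together (r = 0.296), but the labels do not say what the numbers mark and there are 2 pairs, so the block is a hint only. Limma-voom lost the call of 13 of 69 named genes and all 8 libraries lost 54. Ifitm1 was at an adjusted p of 0.05 with 6 libraries, 0.0525 with DESeq2's size factors and 0.0527 with limma-voom, and Ccl3 at 0.0584 with those size factors. Among the uncalled genes that the naming rule picks, log2 fold changes changed sign for 7 when a library was left out: they ran from -0.402 to 0.443 for Cd34 (-0.008 with no filter), -0.662 to 0.064 for Fcgr2b, -0.132 to 0.554 for Mki67, -0.092 to 0.154 for Top2a, -0.158 to 0.032 for Pcna, -0.819 to 0.081 for Egr1 and -0.562 to 0.981 for Fosb. With no filter the median of all genes moved to -0.092. The cause of these changes was not tested. With 2 libraries a population, a difference that missed the threshold is not shown to be absent.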

Other observations

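Some gene families outside the lists were read after the values were seen, and are given as values. Of all tested genes, 1.54% were called higher and 0.925% lower. Of 11 tested Toll-like receptor genes, 2 were called, both higher in CD41- CD9- cells. Tlr7, an endosomal receptor for RNA, had 87.1 and 98.9 CPM in CD41- CD9- libraries and 3.27 and 9.37 CPM in CD48bright libraries (log2 fold change 3.90 ± 0.49 SE, edgeR adjusted p = 0.00193). Tlr9, an endosomal receptor for DNA, had 59.7 and 40.7 CPM in CD41- CD9- libraries and 8.90 and 12.2 CPM in CD48bright libraries (log2 fold change 2.25, edgeR adjusted p = 0.0134). Tlr2 and Tlr4, which act at the cell surface, had log2 fold changes of 0.10 and -0.18 (edgeR adjusted p = 0.977 and 0.961). Unc93b1, which carries endosomal Toll-like receptors to their compartment, had 209 and 172 CPM in CD41- CD9- libraries and 56.9 and 78.8 CPM in CD48bright libraries (edgeR adjusted p = 0.0307, 0.0783 without CD41- CD9- replicate 1 and 0.0996 without CD48bright replicate 1).

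Of 8 guanylate-binding protein genes, 3 were higher in CD41- CD9- cells. Gbp6 had 64.8 and 35.7 CPM in CD41- CD9- libraries and 1.42 and 4.73 CPM in CD48bright libraries (log2 fold change 4.07, edgeR adjusted p = 0.00463), while its relative Gbp7 had 115 and 148 CPM in CD41- CD9- libraries and 141 and 175.5 CPM in CD48bright libraries, which overlapped. Relatives in this family can share reads. Among 11 purinergic receptor genes, P2rx7, P2ry12 and P2ry13 were higher and P2ry1 was lower, with P2ry13 at 38.1 and 31.2 CPM in CD41- CD9- libraries and 2.90 and 7.98 CPM in CD48bright libraries (edgeR adjusted p = 0.0256). P2ry1, an ADP receptor of platelets, had 7.58 and 9.57 CPM in CD41- CD9- libraries and 43.2 and 24.4 CPM in CD48bright libraries (edgeR adjusted p = 0.0461, 0.0778 without CD41- CD9- replicate 1 and 0.186 without CD48bright replicate 1). The call of P2ry12 was lost without CD41- CD9- replicate 1 (edgeR adjusted p = 0.116).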
